A study of Rattus norvegicus with 12 samples.

Results

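In 12 livers of male rats, 10 genes that depend on pulses of growth hormone were followed: Cyp2c11, Cyp2c13, Cyp2a2, Cyp3a18, Obp3, Hsd3b5, Dhrs7l1, Inmt, Ust5r and Mup5. They are 10 of 14217 genes with a name on the array, and 13 of 20826 probe sets that carry 1 gene symbol belong to them. Another 2 probe sets name a member together with a second gene and were left out. The genes were chosen by name with earlier results of these data known. Which of their measured values they were selected on (spread between livers, covariation or diet difference) is not recorded, so all of these are given as a description. The livers came from male Wistar rats, an outbred laboratory strain, labelled 5 weeks old. After 4 days on the purified AIN93G diet, both groups ate that diet for 11 days with a syrup added at 20%, and both were fasted for 16 hours before the liver was taken. In the maple syrup group (6 arrays) this was maple syrup, and in the sugar mix group (6 arrays) a syrup of sugars in proportions close to it. The labels give 7 rats fed maple syrup and 8 fed the sugar mix, and the animals without an array were not analysed here. Each array is labelled a separate biological replicate.

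Growth hormone reaches the liver in widely spaced pulses in male rats and more evenly in females. Pulses switch on the kinase Jak2 and the transcription factor Stat5b at the hormone receptor, and this drives a set of male-specific genes, while steady exposure favours a set of female-specific genes. In rats the male pattern appears around puberty. The set includes cytochromes P450 that hydroxylate steroids, small lipid-binding proteins excreted in urine (alpha-2u-globulins), and a steroid dehydrogenase. Array data of liver RNA cannot tell fewer hepatocytes from less RNA per hepatocyte.

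The deposited values are a score per probe set whose levels resemble log2 intensities, from 5.565 to 15.207 over the table, but its differences between animals are too small for that scale. Over the 12 livers a probe set had a median standard deviation (SD) of 7.14e-06. For the members' probe sets it ran from 9.331e-05 to 0.5158, and within Mup5 alone it differed many-fold between probe sets of the same gene. A difference in this score is therefore no fold change. Sizes are given as Hedges' g, which divides the maple syrup mean minus the sugar mix mean by the SD between animals, and single livers in SDs of the probe set over the 12 livers. Hepatocyte markers were bright: all 9 measured ones, such as Alb, were among the brightest 10% of probe sets. By their brightest probe set, 4 of the 10 members were among these as well, and 1, Dhrs7l1, lay below the median level of all probe sets. No liver stood apart over the whole array: the share of probe sets with their lowest value in a given liver ran from 6.21% to 12.3%, and for the liver sugar mix 2 it was 7.76%.

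Because several members varied together between livers, the sequence ahead of their start sites is shown for the pair of P450 genes that head the set and for the pair of alpha-2u-globulin genes. RefSeq promoters on the GRCr8 build were found for 8 of the 10 members. Positions count back from the annotated start site, and only bases outside the span of the gene are printed. Capitals mark matches to the motifs searched on both strands in 250 bases: TTCNNNGAA (STAT5), TTGCNNAA (C/EBP), TGTTTAC (FOXA), CAAAGTCCA (HNF4), ATCAATA (HNF6) and a motif of HNF1, none overlapping another here. Each stretch starts 250 bases before the start site. That of Cyp2c11 runs to the start site, and the other 3 end earlier, where the annotated span of the gene begins.
Cyp2c11, chr1:246174966-246175215, + strand: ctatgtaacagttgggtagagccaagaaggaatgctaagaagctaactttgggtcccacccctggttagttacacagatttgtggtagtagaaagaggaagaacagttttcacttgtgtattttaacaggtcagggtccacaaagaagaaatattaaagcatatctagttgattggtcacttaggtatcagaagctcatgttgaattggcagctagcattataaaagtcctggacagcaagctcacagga
Cyp2c13, chr1:248787240-248787438, - strand: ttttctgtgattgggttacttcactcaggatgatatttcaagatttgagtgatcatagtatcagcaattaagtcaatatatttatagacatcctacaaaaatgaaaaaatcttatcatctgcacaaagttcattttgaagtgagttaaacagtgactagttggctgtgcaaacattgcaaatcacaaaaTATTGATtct
Obp3, chr5:79640811-79640925, - strand: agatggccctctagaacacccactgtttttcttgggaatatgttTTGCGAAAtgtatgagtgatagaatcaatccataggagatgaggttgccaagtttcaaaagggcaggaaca
Mup5, chr5:79999894-79999945, - strand: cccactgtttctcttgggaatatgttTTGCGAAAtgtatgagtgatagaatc

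The STAT5 motif, found in 7.67% of the 33469 promoters of this length, was in 0 of the 8 member promoters. This says only that these letters are not in this window. All 250 bases were searched, including those within the annotated span of a gene, which for Ust5r is the whole window. The C/EBP motif was in 2 of 8 (Obp3 and Mup5) and in 9.22% of all promoters. The HNF6 motif was in 1 of 8, at -61 to -55 in Cyp2c13, and in 1.93% of all. FOXA, HNF4 and HNF1 motifs were in 0 of 8, against 3.21%, 0.338% and 0.323%. Obp3 and Mup5 share nearly the same stretch: 51 of the 52 printed bases of Mup5 are identical to Obp3 at a shift of 18 bases. Over 232 bases without gaps the identity was 79.3%, against 32.7% to 37.3% in every other pair of members. Part of the compared bases of Obp3 and Mup5 lay within the annotated spans of the genes. These genes belong to a family of close copies on chromosome 5, and probe sets marked as shared between transcripts (the suffixes _x_at, _s_at and _a_at) can read several copies, so values of Obp3, Mup5 and Cyp2c13 may hold signal of relatives.

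Between the diets, all 10 members had a higher mean with maple syrup, none passed the test over all probe sets, and the liver sugar mix 2 was the lowest of the 12 for 9 of them, against 7.76% of all probe sets. With limma and Benjamini-Hochberg adjustment, 0 of 20826 probe sets were called (0%), 873 (4.19%) had an unadjusted p under 0.05, and each member had an adjusted p of 0.9998. Over all probe sets, 48.7% had the higher mean with maple syrup, and 49.1% without sugar mix 2. This share depended on the scaling. It was 42.4% after quantile normalization, where a probe set left without any difference counts as not higher. After median centring it was 95.4%, and 10 of 10 members is near that share. Medians of the arrays over the whole table ran from 7.36619 to 7.36632, wider than the median SD of a probe set (7.14e-06). Centring can therefore move a probe set that hardly varies by more than its spread. The median g of the members was 1.0 with and without centring. The members vary together and are not 10 separate results, and the contrast may have entered their choice. Maple syrup was higher in at least 25 of the 36 possible pairings of a rat of each diet for all 10 members, as for 13.9% of all probe sets. The diets overlapped for every member, and 0.096% of all probe sets had no overlap.

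**Figure D1:**
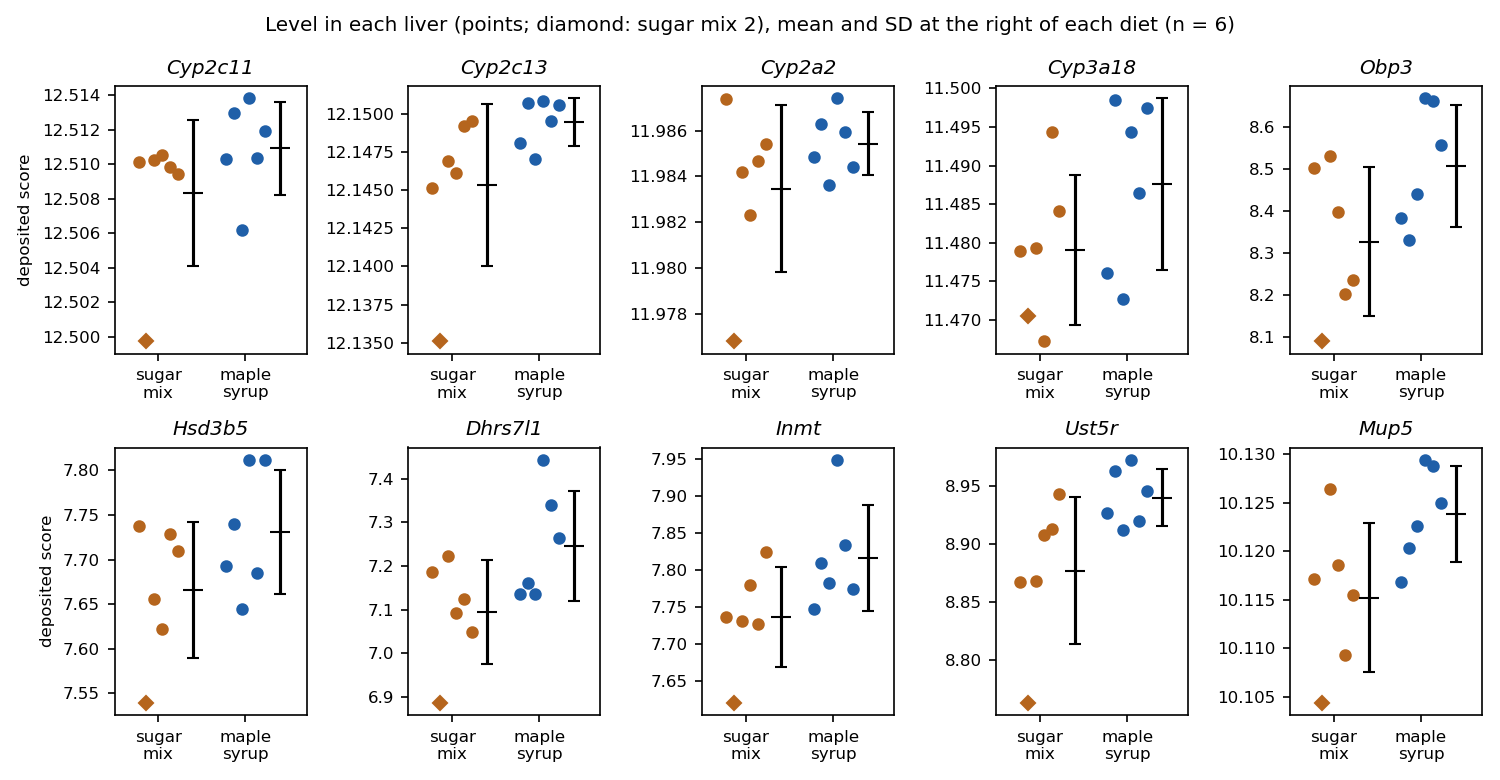
Deposited score (y axis, own scale in each panel, not starting at 0) of the 10 members in each liver by diet, with mean and SD of 6 livers. The diamond, sugar mix 2, is the lowest point in 9 panels, all but Cyp3a18, and the remaining points of the diets overlap.

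Among the steroid-hydroxylating P450s, Cyp2c11, the main male-specific P450 of rat liver, had a lowest score of 12.4997, a median of 12.51 and a highest of 12.5106 with the sugar mix. With maple syrup these were 12.5062, 12.5111 and 12.5138. The other 5 sugar mix livers lay within 12.5094 to 12.5106, so the spread of that diet came from sugar mix 2, and with maple syrup replicate 3 was low and replicate 4 high. The g of Cyp2c11 was 0.68 (95% interval -0.42 to 1.75, n = 6 per diet), and without sugar mix 2 it was 0.40 (-0.71 to 1.49). Cyp2c13, a second male-specific member of that subfamily, ran from 12.1351 through a median of 12.1465 to 12.1495 with the sugar mix and from 12.147 through 12.15 to 12.1508 with maple syrup. Every maple syrup liver was above the sugar mix median, sugar mix 5 and 6 lay inside the maple syrup range, and maple syrup was higher in 32 of the 36 pairings. Its g was 0.98 (-0.17 to 2.08) and 1.10 without sugar mix 2.

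Cyp2a2, a male-specific testosterone hydroxylase, had scores of 11.9768, 11.9844 and 11.9874 (lowest, median, highest) with the sugar mix and 11.9836, 11.9854 and 11.9874 with maple syrup. The highest values of the diets were equal to the decimals given, and g was 0.65 (-0.44 to 1.72), falling to 0.35 without sugar mix 2. Cyp3a18, a male-predominant P450, was the exception in which sugar mix replicate 4 and not replicate 2 was lowest. It ran from 11.4672 through 11.4792 to 11.4943 with the sugar mix and from 11.4728 through 11.4905 to 11.4985 with maple syrup. Replicates 1 and 3 of maple syrup sat among the lower sugar mix livers, and g was 0.76 (-0.36 to 1.83).

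In the alpha-2u-globulin family, Obp3, which encodes a small carrier of hydrophobic molecules, varied widely. Its brighter probe set gave 8.0893, 8.3173 and 8.532 with the sugar mix and 8.3304, 8.4997 and 8.6695 with maple syrup. Replicates 4, 5 and 6 of maple syrup were above every sugar mix liver, while replicates 1, 2 and 3 lay inside the sugar mix range. The g was 1.03 (-0.13 to 2.15). The second probe set of Obp3, with scores of 7.0977, 7.71 and 8.4738 against 7.6472, 8.2242 and 8.7282, had the second widest spread of all 20826 probe sets, an SD of 0.5158, and correlated at 0.98 with the first over the 12 livers. There maple syrup replicate 6, at 8.3765, lay below sugar mix replicate 1, at 8.4738. The g of this second probe set was 0.90 (-0.23 to 2.00).

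Mup5 encodes a major urinary protein of the same family. From its brightest probe set the scores were 10.1044, 10.1163 and 10.1264 with the sugar mix and 10.1168, 10.1238 and 10.1294 with maple syrup. Sugar mix replicates 2 and 5 were low and maple syrup replicates 4 and 5 high, and the groups overlapped. The g was 1.23 (0.03 to 2.38), an interval that makes no allowance for the choice of genes, and 1.06 (-0.15 to 2.23) without sugar mix 2. Both other Mup5 probe sets had a g of 0.77 and 0.68. Their SDs were 0.0228 and 0.0123 times that of the brightest, although they correlated with it at 0.91 and 0.81, so the width of a difference in this score depends on the probe set.

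For the other enzymes, Hsd3b5, a 3-ketosteroid reductase of male liver, had scores of 7.5395, 7.6824 and 7.7375 with the sugar mix and 7.6444, 7.7166 and 7.8118 with maple syrup. Maple syrup replicates 4 and 6 stood above all other livers, and g was 0.83 (-0.29 to 1.92). Dhrs7l1, a short-chain dehydrogenase-like gene, had 6.8868, 7.1082 and 7.2224 against 7.1356, 7.2133 and 7.4436. As for the brighter probe set of Obp3, maple syrup replicates 4, 5 and 6 were above every sugar mix liver. The g of Dhrs7l1 was 1.15 (-0.03 to 2.28), with maple syrup higher in 30 of 36 pairs. Inmt, an N-methyltransferase of indoleamines, had 7.62, 7.7336 and 7.8241 against 7.7467, 7.7958 and 7.9496, with maple syrup replicate 4 the highest of all livers. Its g was 1.05 (-0.11 to 2.16).

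Ust5r encodes a membrane transporter related to the organic anion carriers. It gave scores of 8.7628, 8.8877 and 8.9429 with the sugar mix and 8.9118, 8.9359 and 8.9723 with maple syrup. The maple syrup livers were close together (SD 0.02429) and the sugar mix livers spread (SD 0.06292), with sugar mix 5 and 6 inside the maple syrup range. The g was 1.22 (0.02 to 2.36), with 32 of 36 pairs higher, and 1.30 (0.04 to 2.51) without sugar mix 2. Over the members, 3 of 10 (Dhrs7l1, Ust5r and Mup5) had an unadjusted limma p under 0.05, where 2.08% of all probe sets had one in that direction. Without sugar mix 2 this was 1 of 10 against 1.54%. It was also 1 without sugar mix 5 (2.22% of all probe sets) or maple syrup 5 (1.94%), and 0 of 10 without maple syrup 4 (1.59%) or 6 (2.47%). Without sugar mix 2 all 10 members still had the higher mean with maple syrup.

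**Figure D2:**
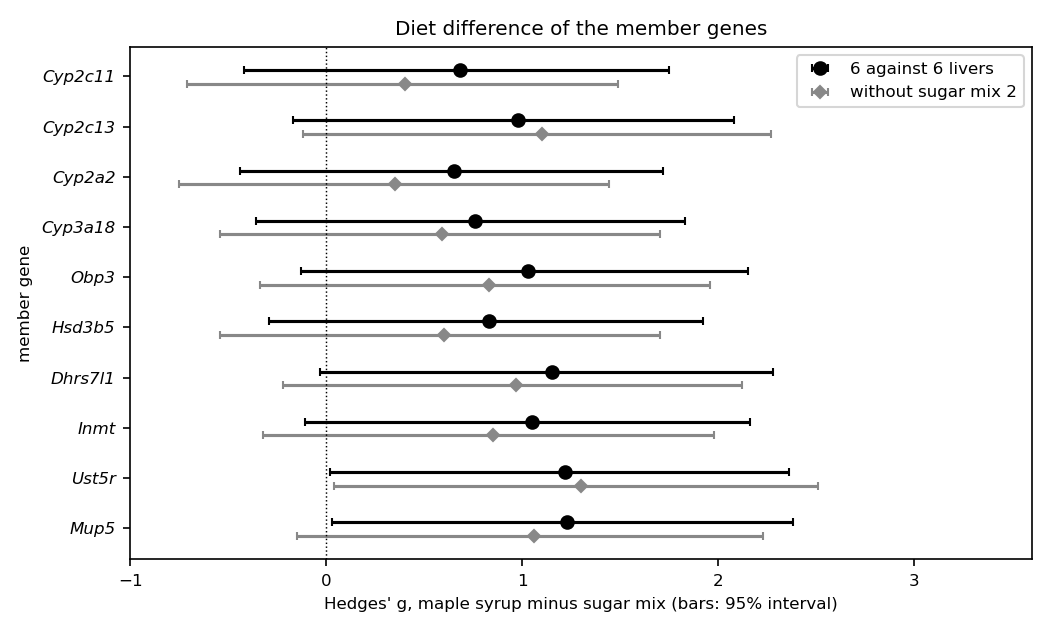
Hedges' g of each member (x axis, maple syrup minus sugar mix, with 95% interval) from all 12 livers (black) and without sugar mix 2 (grey). All points lie above 0, and of the black intervals only those of Ust5r (from 0.02) and Mup5 (from 0.03) leave 0 out.

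In sugar mix 2 all 10 members were below their mean and in maple syrup 4 all 10 were above it, while each of the other 10 livers held members on both sides. The mean of their 10 standardised scores was -2.19 SD in sugar mix 2, where single members lay between -2.86 SD (Cyp2c13) and -1.18 SD (Cyp3a18). In the other 5 sugar mix livers this mean lay within -0.40 to -0.01. With maple syrup it was highest in replicate 4, at 1.34, where 8 of 10 members had their highest value, followed by replicates 6 (0.69), 5 (0.61) and 2 (0.52). Maple syrup replicates 1 and 3, at -0.11 and -0.25, were inside the range of the sugar mix livers.

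**Figure D3:**
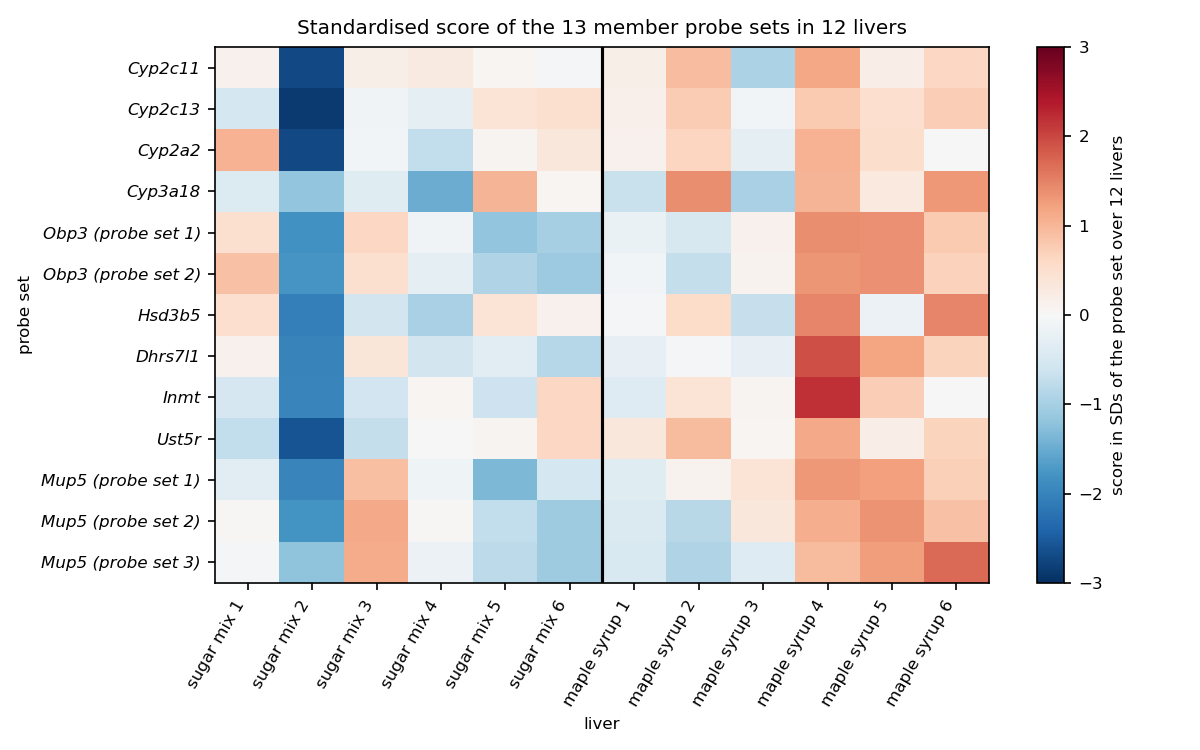
Standardised score (colour, SDs of each probe set over 12 livers) of the 13 member probe sets in rows and the 12 livers in columns, with the diets parted by a line. Sugar mix 2 is blue in every row and maple syrup 4 red in every row.

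Markers of other cells moved in sugar mix 2 as well. The mean standardised score of 3 measured erythroid and blood markers was -1.75 there, the lowest of the 12 livers, with Hbb at -1.91, Alas2 at -2.0 and Slc4a1 at -1.34. Their summed score ran from 29.7855 to 29.7894 with the sugar mix and from 29.7869 to 29.7898 with maple syrup. The mean of 5 stellate cell markers was -1.22 in sugar mix 2, and a maple syrup liver was lower, at -1.57. In sugar mix 2 single stellate markers ran from -2.02 (Lrat) to -0.35 (Col1a1). The summed score of the 5 ran from 43.713 to 43.7209 with the sugar mix and from 43.7111 to 43.7192 with maple syrup. No value of the table is at 0. For 9 hepatocyte markers the mean was 0.06 in that liver, inside the range of the others. Several of these markers hardly varied, with an SD of 5.222e-09 for Alb and 2.264e-07 for Ttr. The median over all probe sets was 7.14e-06, and Tat (0.002237) and Cps1 (1.363e-05) varied more. This mean therefore cannot tell whether the hepatocyte signal changed. Sugar mix 2 also had the lowest mean of 4 sinusoidal endothelial markers (-0.78), with single ones from -1.43 (Stab2) to 0.46 (Lyve1). It had the highest mean of 4 lymphocyte markers (0.67), from -0.78 (Cd3e) to 1.60 (Cd3d). The same held for 3 cholangiocyte markers (0.60), from -0.50 (Epcam) to 1.25 (Krt7). For 4 Kupffer cell markers the mean was 0.48, inside the range of the others, from -0.75 (Adgre1) to 1.62 (Cd68). The part of these markers in the low member values was not tested. Over the 12 livers the members' mean correlated with the erythroid mean at 0.31, the stellate mean at 0.26 and the sinusoidal mean at 0.54. Without sugar mix 2 these were -0.40, -0.29 and 0.14.

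Covariation among the members was high over 12 livers and lower without sugar mix 2. Over the 45 pairs of members the median Pearson correlation was 0.72 (0.25 to 0.95), and all 45 were above 0. As deviations from the diet means the median was 0.61 (0.05 to 0.94). Without sugar mix 2 the median over 11 livers was 0.49 (-0.01 to 0.90). Within the maple syrup livers alone, which do not hold that animal, it was 0.61 (0.11 to 0.98, n = 6). Within the sugar mix livers it was 0.70 with sugar mix 2, and -0.16 over the 5 others. No p is given, since the members may have been chosen for this pattern.

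Within the set, some pairs kept a high correlation without sugar mix 2 and others did not. Obp3 correlated with Mup5 at 0.93 over 12 livers and 0.90 without that liver, and with Dhrs7l1 at 0.92 and 0.87. For Obp3 and Mup5, whose upstream stretches are nearly identical above, shared probe signal was not tested. Cyp2c13 correlated with Ust5r at 0.95 and 0.87, with Cyp3a18 at 0.68 and 0.85, and Cyp3a18 with Hsd3b5 at 0.83 in both. Other pairs came close to 0: Obp3 and Cyp2c13 went from 0.53 to 0.05, and Obp3 and Ust5r from 0.46 to -0.01. Cyp2c11 and Cyp2c13 went from 0.90 to 0.57 without sugar mix 2, and were at 0.93 in the 6 maple syrup livers. Maple syrup replicate 4 was above the mean for 10 of 10 members, replicate 5 for 9, and replicates 2 and 6 for 8 each. In replicate 5 the highest standardised scores were those of Obp3 (1.36), Mup5 (1.22) and Dhrs7l1 (1.19), and in replicate 2 those of Cyp3a18 (1.39), Ust5r (0.96) and Cyp2c11 (0.92). Sugar mix 5 held Mup5 at -1.34 and Cyp3a18 at 1.01.

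**Figure D4:**
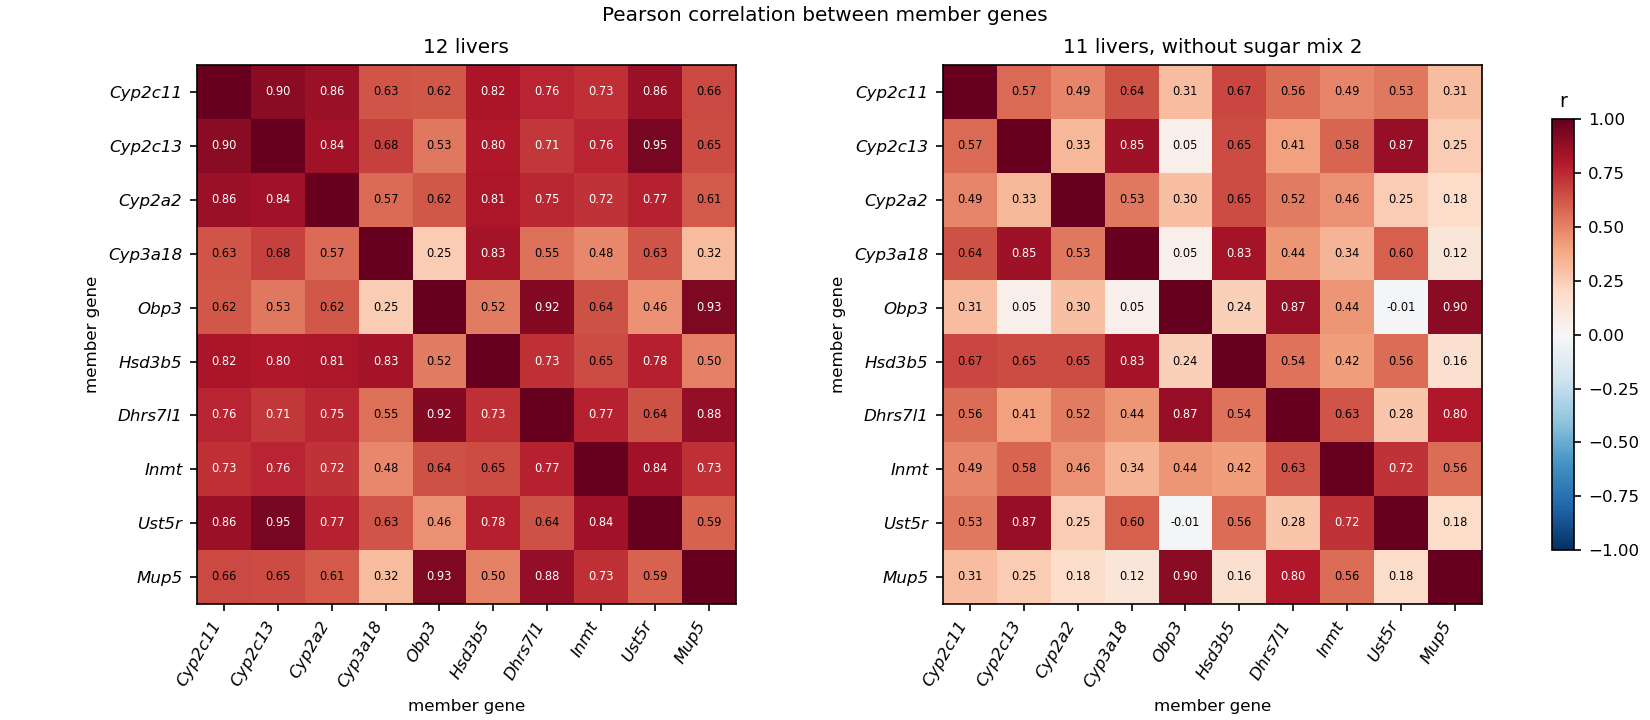
Pearson correlation (colour and number) between the 10 members over 12 livers (left) and over 11 livers without sugar mix 2 (right). Obp3, Dhrs7l1 and Mup5 stay at 0.80 or above with each other on the right, while Obp3 falls to 0.05 with Cyp2c13 and Cyp3a18.

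Female-biased genes, those that steady growth hormone favours, ran opposite to the members across livers. Each gene's median correlation with the 10 members, on deviations from the diet means, was below 0 in 12 of 13 measured genes, with a median of -0.45, where the median over all 20813 other probe sets was -0.01 and 48.0% were above 0. Without sugar mix 2 the median of the 13 was -0.54. By liver, the mean standardised score of the 13 genes correlated with that of the members at -0.81 over 12 livers (Spearman -0.90), at -0.83 without sugar mix 2, at -0.73 within the sugar mix and at -0.87 within maple syrup. It was 1.01 in sugar mix 2 and 0.98 in maple syrup 3, where the members were low, and -0.95 in maple syrup 4, where they were highest. Leaving out each liver in turn gave -0.87 to -0.76. The members and the lists of sex-biased genes were chosen with earlier results of these data known, so these values are a description and no test.

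A1bg, a plasma protein gene of female rat liver, had the lowest median correlation with the members over 12 livers, at -0.72. Without sugar mix 2 it was at -0.56, and Prlr (-0.69) and Trim24 (-0.57) were lower. Cyp2c12, the female-specific steroid sulfate hydroxylase, was at -0.60 and -0.31, and Prlr, the prolactin receptor, at -0.45 and -0.69. The Cyp2c12 probe set was bright in these male livers, with a mean score of 11.5249 beside 11.4834 for the member Cyp3a18. Whether it reads related genes was not tested. Akr1b7, an aldo-keto reductase with the widest spread of this list (SD 0.9756), was at -0.61 and -0.55. Between the diets 11 of the 13 genes were lower with maple syrup and 2 higher (Cyp3a9 and Tox), with a median g of -0.63 against -0.02 over all probe sets, and 0 passed limma after adjustment. Cyp2c12 had g = -1.38 (-2.55 to -0.15) and A1bg g = -0.99 (-2.09 to 0.16), each with an adjusted p of 0.9998. With median centring, where 95.4% of all probe sets were higher with maple syrup, 9 of 13 were lower, Sult2a1 and Cyp2c7 changing sign. With quantile normalization 10 were lower and Sult2a1 and Cyp3a9 higher.

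**Figure D5:**
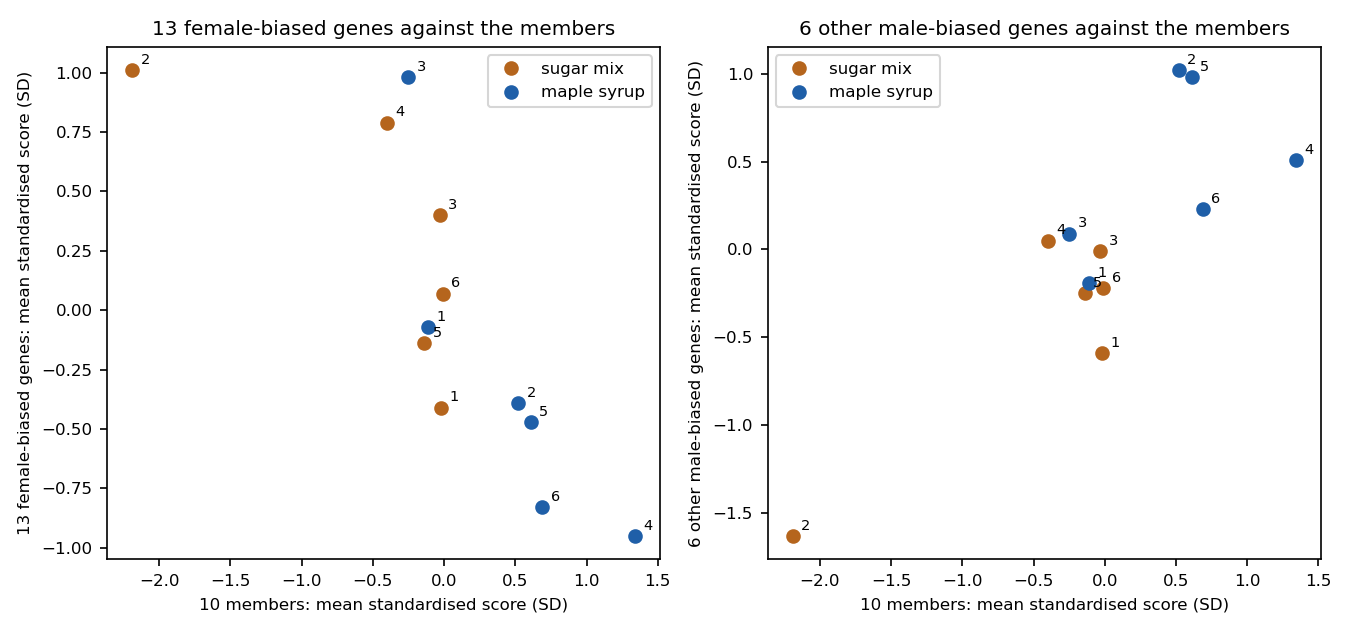
Mean standardised score of 13 female-biased genes (left) and 6 other male-biased genes (right) against that of the 10 members, in SDs, for each liver (number: replicate). Female-biased genes slope down from sugar mix 2 to maple syrup 4, and on the right sugar mix 2 sits alone at -1.63.

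Other male-biased genes followed the members over 12 livers and less closely without sugar mix 2. Of 6 measured, all had the higher mean with maple syrup (median g 0.87), 0 passed limma after adjustment, and 5 had a median correlation with the members above 0. The exception was Cyp7b1, an oxysterol hydroxylase, at -0.53, and -0.13 without sugar mix 2. Its probe set hardly varied, with an SD of 8.626e-06 against a median of 7.14e-06 over all probe sets. The median of the 6 was 0.59, and 0.06 without sugar mix 2. By liver, their mean correlated with that of the members at 0.84 (Spearman 0.62), 0.63 without sugar mix 2, 0.89 within the sugar mix and 0.52 within maple syrup. Sult1c3, a sulfotransferase, had g = 1.52 (0.26 to 2.73) and Cyp3a2, a male-specific P450, 0.94 (-0.20 to 2.04). Sult1e1, the estrogen sulfotransferase, lay at -2.60 SD in sugar mix 2, and its median correlation of 0.73 became 0.25 without that liver. Fmo1, a flavin monooxygenase, kept 0.46 of 0.63. After quantile normalization Cyp3a2 and Cyp7b1 had no difference between the diet means, and the other 4 remained higher. That scaling gives a probe set the same score in all livers where its rank is the same. A missing difference there says nothing about the diet.

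No growth hormone signalling gene passed the test of correlation with Cyp2c11. For 19 measured genes of the receptor pathway and of liver transcription factors, the correlation with Cyp2c11 over 12 livers was computed with a two-sided permutation test: 0 passed after Benjamini-Hochberg adjustment over the 19, and 0 had an unadjusted p under 0.05, by Pearson or Spearman. Ghr, the growth hormone receptor, was at r = 0.49 (permutation p = 0.0986, adjusted p = 0.936) and rho = 0.50 (permutation p = 0.105, adjusted p = 0.536). It was at 0.68 within the sugar mix, 0.04 within maple syrup, and 0.63 without the 2 livers farthest from the median of Cyp2c11. Between the diets Ghr had g = 2.31 (0.84 to 3.73), with a limma adjusted p of 0.9998, and as deviations from the diet means its r was 0.34. Of the 19 genes, 8 had the higher mean with maple syrup and 11 the lower. With median centring, where 95.4% of all probe sets were higher, these were 13 and 6, and with quantile normalization 8 and 6. Some of the 19 hardly varied, such as Stat5a (SD 1.699e-06) and Hnf4a (4.779e-06), below the median of 7.14e-06 over all probe sets. Igfals, a binding partner of circulating IGF1, was at r = -0.50 (permutation p = 0.0799, adjusted p = 0.936) and rho = -0.48 (permutation p = 0.122, adjusted p = 0.536), with -0.47 without those 2 livers. Stat5b, the transducer of the pulse, was at r = 0.32 (permutation p = 0.321, adjusted p = 0.945), and -0.04 without those 2 livers. Its rho was 0.24 (permutation p = 0.458, adjusted p = 0.791). Cish, a feedback inhibitor, was at r = 0.24 (permutation p = 0.472, adjusted p = 0.945), with rho = 0.29 (permutation p = 0.354, adjusted p = 0.672) and 0.21 without them. A p that misses the threshold at 12 livers does not show that these genes are unrelated.

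Over all 20813 probe sets of other genes, those with the highest median correlation with the members (deviations from diet means, 12 livers) were led by both probe sets of Trim2, a ubiquitin ligase, at 0.81 and 0.80, and at 0.63 each without sugar mix 2. The other 8 of the first 10 were Exoc3l1 (0.75), Peds1, which makes plasmalogens (0.74), Spink1l, a protease inhibitor-like gene (0.74), Pcmtd1 (0.73), Sult1e1 (0.73), Itsn2 (0.73), Slc22a8, an organic anion transporter (0.72), and Sowahb (0.71). Only 3 of the 10, Peds1 and both Trim2 probe sets, were among the first 10 without sugar mix 2. At the other end stood Psmb8, a subunit of the immunoproteasome (-0.77), Casp9, an initiator caspase (-0.77), Plbd1 (-0.76), Gal3st4 (-0.76) and Lemd3 (-0.73), of which Plbd1 alone stayed in the last 5 without sugar mix 2, at -0.68. Psmb8 was 2.65 SD above its mean in sugar mix 2, with scores of 9.24676, 9.24943 and 9.25967 with the sugar mix and 9.24389, 9.24713 and 9.25151 with maple syrup. Some of these probe sets hardly varied: Peds1 had an SD of 4.145e-06, below the median of all probe sets. These correlations share 12 livers and describe likeness only.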

How the data were processed

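Liver RNA of 12 rats was hybridised to Affymetrix arrays from 2 ug of total RNA, per the labels' protocols. The deposited table holds the authors' score for each of 31099 probe sets (summarization and normalization: not given in the sources used here). The test planned for log2 values was kept for this score. Probe sets were named by the platform annotation and RefSeq: 20826 had 1 symbol, 436 several, 9780 none, and 57 were controls. All 20826 were fitted with limma 3.58.1 in R 4.3.3 (lmFit, eBayes with intensity trend, two-sided, adjusted p of 0.05). Intervals of g come from the noncentral t distribution. Correlations used the probe set with the highest mean of a gene, and permutation tests 100000 resamples. The members and lists were chosen with earlier results of these data known. Named genes are the members, examples of the lists, and the 10 highest and 5 lowest by median correlation. On simulated data (20826 probe sets), limma recovered 46% of 200 shifts of 3 SD and 4% of 200 shifts of 2 SD. Alternatives were other scalings, probe set rules, filters, variance models, a replicate block and each liver left out. Precision is limited by the number of arrays, and p-values measure the spread between these animals. Figures used matplotlib 3.10.9.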

Additional observations from a re-analysis of the deposited data

Results flagged for a closer look

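In the sugar mix group 1 liver lay far from the other 5 for 2 of the 26 combinations of a member probe set and a diet, where chance gives about 1.3. Both were the low value of replicate 2, at 12.4997 for Cyp2c11 and 12.1351 for Cyp2c13.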

How the results depend on the processing

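No probe set was called under any of the alternatives run, and all 10 members kept the higher mean with maple syrup in each of them, where the share of all probe sets higher was 42.4% after quantile normalization, 95.4% after median centring and 47.1% to 49.8% in the others; with each liver left out in turn the count stayed at 0. Over those 12 refits g ran from 0.40 to 0.98 for Cyp2c11, 0.86 to 1.19 for Cyp2c13, 0.35 to 0.98 for Cyp2a2, 0.56 to 1.12 for Cyp3a18, 0.83 to 1.32 for Obp3, 0.60 to 1.08 for Hsd3b5, 0.97 to 1.36 for Dhrs7l1, 0.85 to 1.33 for Inmt, 1.05 to 1.58 for Ust5r and 1.05 to 1.83 for Mup5. Taken singly and without adjustment, an exact two-sided permutation test of 6 against 6 gave p = 0.039 for Cyp2c13 (g = 0.98), 0.026 for Ust5r (1.22) and 0.0455 for Mup5 (1.23); the other 7 had an exact p above 0.05, and these genes were not chosen independently of the data. With the replicate number as a block 0 probe sets were called. In that fit 0 of 10 members had an unadjusted limma p under 0.05 (2.07% of all probe sets, higher), in place of 3 (2.08%). With median centring and no block, 6 of 10 members had one (0.25%). Their median g was 1.0 there, as in the main fit, so this is no larger difference between the diets. The labels do not say whether equal numbers pair animals. Same-numbered livers correlated at -0.04 to 0.12 in their deviations from the diet means, and none correlated best with its own number. Such low correlations cannot exclude something shared by same-numbered livers. The median correlation between members was 0.57 by Spearman, 0.44 as deviations without sugar mix 2 and -0.16 in the other 5 sugar mix livers, the last 2 chosen after seeing the data, and 0.49 to 0.75 with each liver left out. With Cyp2c11 no signalling gene passed within a diet, as deviations or without the 2 farthest livers.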
